A study of Mus musculus with 15 samples.

Results

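The AP-1 family transcription factors described here are 9 genes: Fos, Fosb, Fosl2, Jun, Junb, Jund, Batf, Batf3 and Maff. They were taken by symbol from a table of 51912 mouse genes, each matched 1 row, and all 9 passed the filter on low counts. The series holds RNA-seq profiles of wild-type mouse B cells cultured with IL-4 (100 ng/ml) over 40LB cells, a feeder line that keeps B cells dividing. Its title concerns calcium signalling in the differentiation and survival of IgE plasma cells. The 5 groups have 3 biological replicates each, and their treatment is given as none. The group called D6 was taken unsorted after 6 days on the feeder layer. The other 4 groups were lifted off the feeder, kept 2 more days in RPMI with no stimulus, and then sorted into IgE plasma cells (IgE PC), IgG1 plasma cells (IgG1 PC), and the IgE and IgG1 cells called iGC in the labels. All 5 groups share the genotype and the feeder and IL-4 culture, and they model plasma cell formation in a dish, not in an animal.

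AP-1 is not a single protein but a set of dimers of basic leucine zipper proteins. FOS proteins (Fos, Fosb, Fosl2) cannot pair with each other and bind DNA with a JUN partner, while JUN proteins (Jun, Junb, Jund) can pair among themselves. Batf and Batf3 lack a transactivation domain of their own, pair with JUN proteins, and together with Irf4 or Irf8 bind composite sites in lymphocytes. Maff is a small MAF protein, which also lacks such a domain and pairs with CNC-type partners such as Bach2, a repressor that delays plasma cell formation. Fos, Fosb, Jun and Junb are immediate-early genes, whose transcripts rise within minutes of antigen receptor, calcium or kinase signals, and Batf is needed for class switching in mouse B cells.

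Promoter sequences are shown for 5 members because their regulatory letters differ near the start of transcription. They are RefSeq sequence on GRCm38.p6, written in the direction of the gene, and each line is the part around the matches. Capitals mark the core of a cAMP response element (TGACG), its full palindrome (TGACGTCA), the CCAAT box bound by NF-Y, and the letters of a TATA box (TATAAA).
Fos, chr12:85473751-85473872, plus strand: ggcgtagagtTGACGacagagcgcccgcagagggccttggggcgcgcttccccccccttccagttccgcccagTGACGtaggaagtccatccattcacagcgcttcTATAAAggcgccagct
Fosb, chr7:19310091-19310115, minus strand: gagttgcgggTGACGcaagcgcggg
Junb, chr8:84978733-84978864, minus strand: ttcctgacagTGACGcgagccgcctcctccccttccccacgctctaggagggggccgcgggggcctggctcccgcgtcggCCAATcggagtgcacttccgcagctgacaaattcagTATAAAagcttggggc
Batf, chr12:85686612-85686636, plus strand: tctaacttgtTGACGtttccgccca
Maff, chr15:79347481-79347508, plus strand: gctggggcggTGACGTCActgcatgact

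The windows searched ran from 250 bases before to 50 bases after each RefSeq start, on both strands, and the 9 members had 11 such promoters. Fos held the cAMP element core at 129 and 66 bases before its start and the TATA letters at 33 bases before it. Fosb held a single core 60 bases before its start, and Batf a single one 98 bases before. Junb held the core at 106 and the CCAAT box at 36 bases before the RefSeq start. Its TATA letters began at the RefSeq start itself, and the GENCODE vM21 gene start lies 30 bases downstream of that. The second of the 3 Maff promoters held the full palindrome 29 bases before its start, the third held the core on the opposite strand, and Jun held a CCAAT box 65 bases before its start. No letters searched for were present in the windows of Batf3, Fosl2, Jund and the first Maff start. For Jund the RefSeq start used is 1210 bases upstream of the GENCODE gene start, and for Fosl2 and Batf3 it is 671 and 567 bases downstream. Among 32851 mouse promoters of the same length, 20.8% held the core, 1.79% the palindrome, 37.4% the CCAAT box and 13.6% the TATA letters. The core lies inside the palindrome, so these shares overlap. The AP-1 site TGANTCA (in 7.81% of promoters), the NF-kB consensus site (0.155%) and the CArG box bound by SRF (1.63%) were in none of the 11 windows. The core and the TATA letters were added after the first search. These are exact matches of letters, not measured binding sites, and variant sites or sites outside the windows were not searched.

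The libraries summed to between 17.7 M and 54.1 M expected counts, with the smallest in IgE iGC replicate 3. Plasma cell markers (8 genes) summed to between 17099 and 19540 CPM (counts scaled to library size with TMM factors) in IgE PC, to between 9536 and 13902 CPM in IgG1 PC, and to at most 1094 CPM elsewhere. B cell markers (8 genes) summed to between 9569 and 9961 CPM in iGC libraries, to between 5125 and 5382 CPM in IgG1 PC and to between 3808 and 4015 CPM in IgE PC. Among markers of other cells, the T cell gene Cd3e was at 0 in every library outside IgG1 PC, where its mean was 0.0117 CPM. The T cell list summed to at most 47.5 CPM, nearly all from Cd2 in that library, the myeloid list (mostly Cd68) to at most 27.2 CPM, and the list of natural killer, granulocyte and mast cell genes to at most 0.545 CPM. The largest foreign signal was a list of 13 fibroblast genes, as a feeder layer would give. It summed to between 277 and 421 CPM at D6 and to 211, 80.9 and 214 CPM in IgG1 PC replicates 1, 2 and 3. IgG1 iGC libraries held 42.9 to 75.7 CPM of them, IgE iGC libraries 63.2 to 83.9 CPM and IgE PC libraries 26.0 to 41.1 CPM, and Lum was at 0 in every IgE library. In bulk RNA, fewer cells expressing a gene and less of its RNA per cell cannot be told apart.

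Scaling bears on the directions given below. Over the 15692 genes tested, the median log2 fold change for IgE PC against IgE iGC was -0.08 with TMM and -0.55 with plain total-count scaling. The medians moved from -0.05 to -0.30 for IgE PC against IgG1 PC, from 0.01 to -0.22 for IgG1 PC against IgG1 iGC and from -0.06 to -0.30 for the interaction. Against D6 the medians were -0.04 and -0.57 for IgE PC, and 0.01 and -0.27 for IgG1 PC, by TMM and total counts. With total counts without immunoglobulin genes, the median was -0.26 for IgE PC against IgG1 PC and -0.25 for the interaction. It was -0.25 for IgE PC against IgE iGC and 0.03 for IgG1 PC against IgG1 iGC. Against D6 it was -0.28 for IgE PC and -0.03 for IgG1 PC. The share of called genes that were higher was also smaller with total counts than with TMM. It was 47.2% for IgE PC against IgG1 PC with TMM and 23.8% with total counts, 47.6% and 23.3% for the IgE step from iGC to PC, 50.9% and 32.0% for the IgG1 step, and 46.1% and 21.6% for the interaction. For IgE PC and IgG1 PC against D6 it was 48.3% and 49.96% with TMM, and 26.8% and 35.0% with total counts.

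By length-corrected level, the family was made mostly of JUN transcripts in all 5 groups, and FOS transcripts took a larger part of it in plasma cells. The 9 genes summed to 433 ± 2.72 TPM (RSEM's length-corrected level, mean ± SD, n = 3 libraries here and below) at D6. The sum was 342 ± 17.6 TPM in IgG1 iGC, 325 ± 31.6 in IgE iGC, 387 ± 31.4 in IgG1 PC and 304 ± 39.7 in IgE PC. CPM is not length-corrected, and it is scaled with TMM factors while TPM is not. The part of each in the sums was not tested. Jund alone stood at 288 TPM and 264 CPM at D6, and at 121 TPM and 206 CPM in IgE PC. On CPM the order of the sums differed. They were 423 ± 5.83 at D6, 347 ± 26.1 in IgG1 iGC, 348 ± 34.5 in IgE iGC, 679 ± 135 in IgG1 PC and 592 ± 75.0 in IgE PC. The IgE PC mean was thus below that of IgE iGC by TPM and above it by CPM. FOS transcripts made up 3.71% ± 0.826 of the sum at D6, 6.49% ± 2.28 in IgG1 iGC and 8.46% ± 0.236 in IgE iGC, but 25.7% ± 4.88 in IgG1 PC and 27.2% ± 3.89 in IgE PC. Nearly all of this was Fos itself, at 21.9% ± 4.66 in IgG1 PC and 23.8% ± 3.24 in IgE PC. JUN transcripts made up 84.8% ± 0.578 at D6 and less in PC, at 65.9% ± 3.49 in IgG1 PC and 67.1% ± 3.21 in IgE PC. Jund alone made up 66.6% at D6 and between 32.7% and 40.4% in the 4 sorted groups. The BATF share was highest in IgG1 iGC at 17.4% ± 0.352 and lowest in IgE PC at 5.61% ± 0.673, and the mean share of Maff was at most 0.942%, at D6. These shares are descriptions, with no test.

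**Figure D1:**
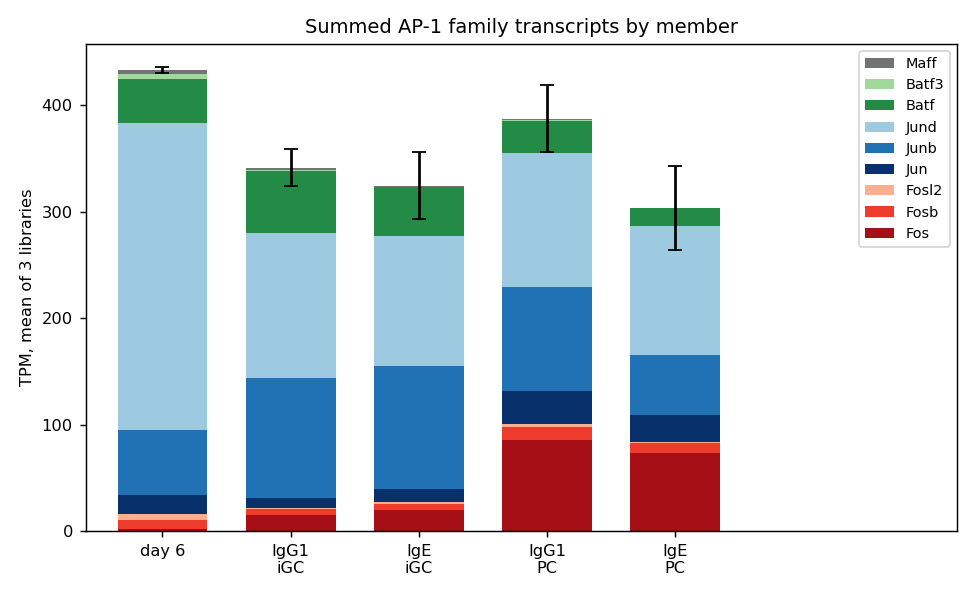
Stacked bars give the mean TPM of each of the 9 members over 3 libraries per group (vertical axis), and error bars give the SD of the sum. Jund fills most of the D6 bar, and Fos is barely visible there but takes 21.9% of the IgG1 PC bar and 23.8% of the IgE PC bar.

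The step from iGC to PC is a comparison of populations sorted on the same day, and does not follow cells over time. In IgE cells 4 members were higher in PC (Fos, Fosb, Jun, Jund) and 3 lower (Fosl2, Batf, Maff), where 64.1% of all genes tested were called, 30.5% higher and 33.6% lower. In IgG1 cells 6 were higher (Fos, Fosb, Fosl2, Jun, Junb, Jund) and 1 lower (Batf), where 59.1% of all genes were called, 30.1% higher and 29.0% lower. The median log2 fold change of the members was -0.31 in IgE, against -0.08 for all genes, and 0.58 in IgG1, against 0.01. A called gene has a Benjamini-Hochberg adjusted p under 0.05 in edgeR's quasi-likelihood test, adjusted over all 15692 genes.

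Fos, the classic immediate-early gene and the FOS partner most used in acute responses, had the widest range of the family. Its levels were 2.00, 2.89 and 3.55 CPM at D6, 22.0, 17.9 and 11.04 in IgG1 iGC, 24.9, 23.8 and 22.0 in IgE iGC, 195.9, 147.7 and 87.7 in IgG1 PC, and 180.1, 139.8 and 106.3 in IgE PC. The D6, iGC and PC levels did not overlap, while the isotypes overlapped in PC. Fos was 6.01-fold higher in IgE PC than in IgE iGC (log2 fold change 2.59, SE 0.32, edgeR Benjamini-Hochberg adjusted p = 1.26e-05). In IgG1 cells it was 8.41-fold higher in PC (3.07, SE 0.32, edgeR adjusted p = 5.61e-06). The difference between these 2 steps, -0.48 (SE 0.43), did not pass (edgeR adjusted p = 0.404). Between IgE PC and IgG1 PC the log2 difference was -0.01, with an approximate 95% interval from -0.66 to 0.64. The 3 libraries spread widely within each PC group. The order of the 5 groups was therefore both PC groups, then both iGC groups, then D6.

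Fosb, a close relative that is induced by the same signals, also rose at the step from iGC to PC. It stood at 12.1, 17.2 and 16.7 CPM at D6, 19.6, 11.03 and 4.09 in IgG1 iGC, 15.9, 15.02 and 11.5 in IgE iGC, 50.7, 45.9 and 27.4 in IgG1 PC, and 49.9, 35.8 and 26.5 in IgE PC. On this scale every PC library lay above every other library, and IgG1 iGC spread the most relative to its mean. By TPM the PC libraries overlapped others, with IgE PC replicate 3 at 6.76 and D6 replicate 2 at 9.68. The log2 fold change was 1.82 in IgG1 cells (SE 0.44, edgeR Benjamini-Hochberg adjusted p = 0.00362) and 1.39 in IgE cells (SE 0.44, adjusted p = 0.0146). The rise in IgE cells no longer passed without IgE PC replicate 1 (1.124, adjusted p = 0.0608), with total-count scaling (0.93, adjusted p = 0.0618) or in limma on log2(TPM + 1) (0.57, adjusted p = 0.159). The isotypes did not differ detectably in PC (-0.14, 95% interval -1.06 to 0.79), and D6 and the iGC groups did not pass against each other, except IgG1 iGC against D6 without IgG1 iGC replicate 1 (-1.005, edgeR adjusted p = 0.0489).

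Jun, the founding JUN protein and the target of the JNK kinases, rose at both steps from iGC to PC. Its levels were 31.7, 32.1 and 35.1 CPM at D6, 20.1, 20.6 and 12.2 in IgG1 iGC, 22.8, 29.2 and 21.8 in IgE iGC, 117, 89.7 and 72.8 in IgG1 PC, and 92.6, 90.7 and 67.6 in IgE PC. All 6 PC libraries were above all others, and the isotypes overlapped in PC. Jun was 5.26-fold higher in PC in IgG1 cells (log2 2.40, SE 0.21, edgeR Benjamini-Hochberg adjusted p = 4.6e-07) and 3.39-fold higher in IgE cells (1.76, SE 0.21, adjusted p = 4.37e-06). The difference between the steps, -0.64 (SE 0.29), did not pass (edgeR adjusted p = 0.0955), though it did with total-count scaling (-0.86) and without IgG1 PC replicate 3 (-0.78). In PC the isotypes differed by -0.15 (95% interval -0.59 to 0.29).

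**Figure D2:**
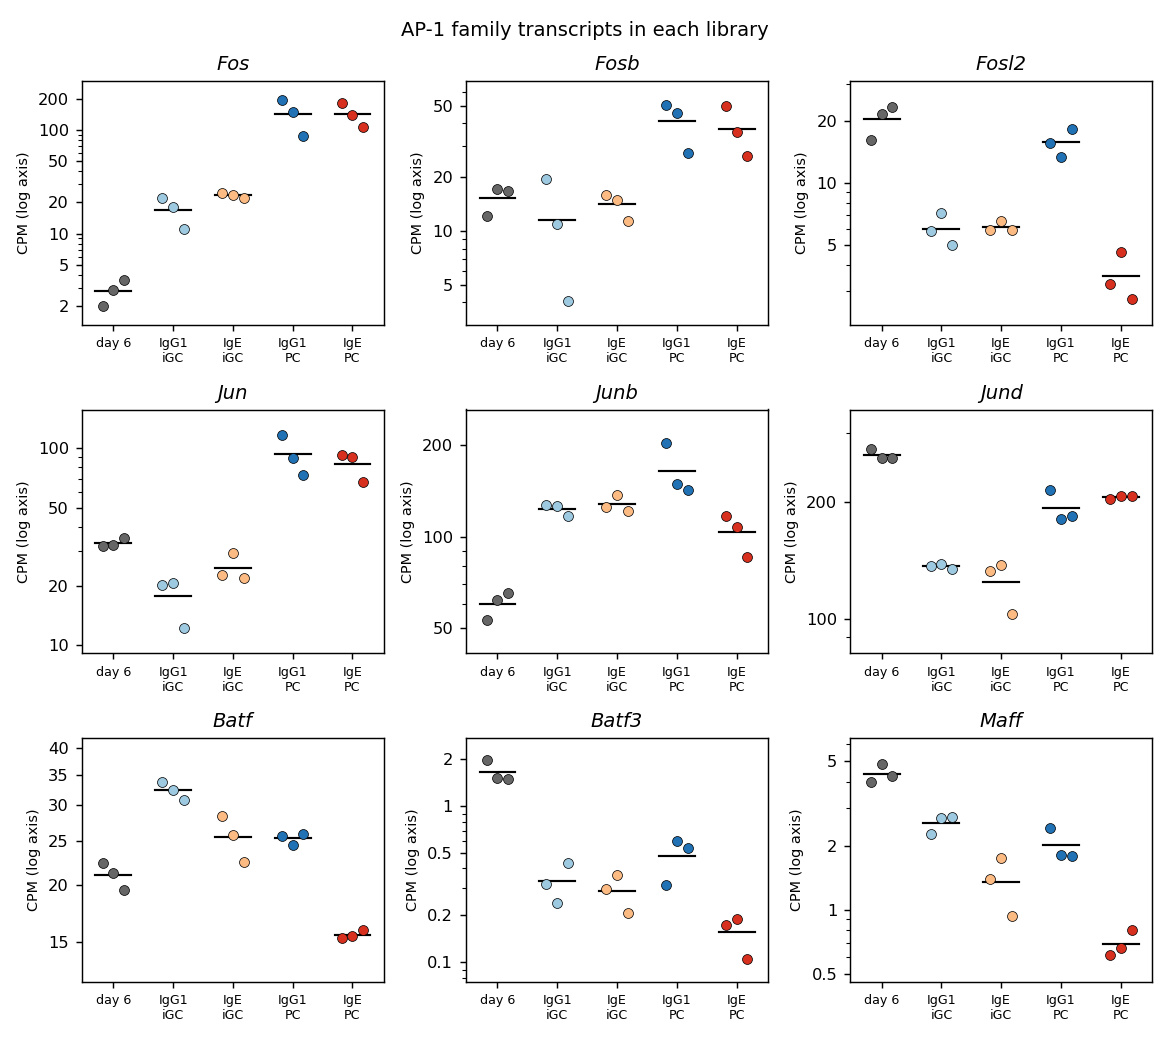
Each panel gives 1 member, with CPM on a log axis, a point for each library in the order of its replicate number, and a line at the group mean. Fos runs from 2.00 CPM at D6 to 195.9 CPM in IgG1 PC. Fosl2, Batf, Batf3 and Maff have their lowest mean in IgE PC, though Batf3 there did not pass against IgE iGC.

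Junb, the second of the JUN proteins, differed between the plasma cell isotypes. Junb, which can dampen Jun activity and is itself inducible, stood at 53.2, 62.1 and 65.2 CPM at D6, 126.5, 125.7 and 117 in IgG1 iGC, 125.0, 136.5 and 122 in IgE iGC, 203, 148.9 and 142 in IgG1 PC, and 117, 107 and 85.8 in IgE PC. On this scale IgG1 PC was above every other group, D6 below every other, and IgE PC lay below IgE iGC in every library. By mean TPM the order differed, with IgG1 PC at 98.0, IgE iGC at 115, D6 at 60.4 and IgE PC at 56.2. Junb was 1.59-fold lower in IgE PC than in IgG1 PC (log2 -0.67, SE 0.13, edgeR Benjamini-Hochberg adjusted p = 0.000503). Within IgE its difference from iGC to PC was -0.31 (95% interval -0.60 to -0.01), just short of the threshold (adjusted p = 0.0544), and within IgG1 it was 0.42 (SE 0.13, adjusted p = 0.0124). The IgG1 value depends on the scaling and on 1 library. It was 0.18 with total counts (adjusted p = 0.224), 0.24 without IgG1 PC replicate 1 (adjusted p = 0.0773), and -0.20 in limma on log2(TPM + 1) (adjusted p = 0.146). The IgE difference passed as a fall with total counts (-0.77, adjusted p = 4.88e-05) and with the replicate block (-0.31, adjusted p = 0.0459). It also passed with total counts without immunoglobulin genes (-0.47, adjusted p = 0.00558), in limma (-1.04, adjusted p = 1.62e-06) and without IgE PC replicate 1 (-0.41, adjusted p = 0.0246). Junb overlaps the protein-coding gene Prdx2 on the opposite strand, which held up to 4712 counts in a library. Whether the authors counted by strand is not given in the sources used here, so reads of these genes may not be fully separated.

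Jund, the JUN protein that is present in resting cells, had the highest CPM of the family at D6, and no D6 library overlapped another group. It stood at 273.8, 258.7 and 259.7 CPM at D6, 137, 138 and 135 in IgG1 iGC, 133, 138 and 103 in IgE iGC, 214, 181 and 183 in IgG1 PC, and 203, 207 and 207 in IgE PC. PC libraries of both isotypes were above all iGC libraries on this scale. The log2 difference between PC and iGC was 0.72 in IgE (SE 0.09, edgeR Benjamini-Hochberg adjusted p = 3e-06) and 0.49 in IgG1 (SE 0.09, adjusted p = 0.000214). On log2(TPM + 1) with limma it was 0.00091 in IgE (adjusted p = 0.995) and -0.11 in IgG1 (adjusted p = 0.238), with the median of all genes at -0.49 and -0.42. On that scale Jund was not called, and it lay above the median gene. Between isotypes in PC Jund differed by 0.10 (95% interval -0.10 to 0.29). Jund and Jun also overlap opposite-strand genes, Gm11175 and Junos, which held at most 162 and 34 counts in a library.

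Fosl2 was the member that separated the 2 kinds of plasma cell most by fold. Fosl2 encodes FRA-2, a longer-lived FOS protein without the strong activation domain of Fos. Its levels were 16.2, 21.6 and 23.3 CPM at D6, 5.84, 7.14 and 5.04 in IgG1 iGC, 5.91, 6.58 and 5.94 in IgE iGC, 15.5, 13.3 and 18.3 in IgG1 PC, and 3.25, 4.64 and 2.75 in IgE PC. IgE PC was the lowest group and overlapped no other, and IgG1 PC overlapped D6 but no iGC library. Fosl2 was 4.41-fold lower in IgE PC than in IgG1 PC (log2 -2.14, SE 0.19, edgeR Benjamini-Hochberg adjusted p = 2.76e-07). It fell by 0.79 on the log2 scale from IgE iGC to IgE PC (SE 0.20, adjusted p = 0.00293) and rose 2.61-fold from IgG1 iGC to IgG1 PC (1.38, SE 0.18, adjusted p = 1.22e-05). The steps differed by -2.17 (SE 0.27, edgeR adjusted p = 1.93e-05).

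Fibroblast markers moved with Fosl2. Of the 12 fibroblast genes tested, 11 were lower in IgE PC than in IgG1 PC, and 9 were higher in IgG1 PC than in IgG1 iGC. Their summed level was 211 and 214 CPM in IgG1 PC replicates 1 and 3 and 80.9 CPM in replicate 2. That last value is close to the 75.7 CPM of IgG1 iGC replicate 2 and the 83.9 CPM of IgE iGC replicate 2. In these 3 libraries Fosl2 stood at 13.3, 7.14 and 6.58 CPM. A fit without IgG1 PC replicates 1 and 3 keeps a lone IgG1 PC library with no spread of its own, so only effect sizes are given. In that fit the Fosl2 difference between PC isotypes was -1.89 and the steps differed by -1.92. This alternative was chosen after the data were seen, and the library it keeps held more fibroblast signal, 80.9 CPM, than the 26.0 to 41.1 CPM of IgE PC. The part of feeder RNA in these differences was not tested. The Junb, Batf, Batf3 and Maff differences between PC isotypes were -0.52, -0.65, -1.89 and -1.39 in that fit. D6 had the most fibroblast signal and the highest Fosl2, and the part of feeder RNA in the D6 levels was not tested.

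**Figure D3:**
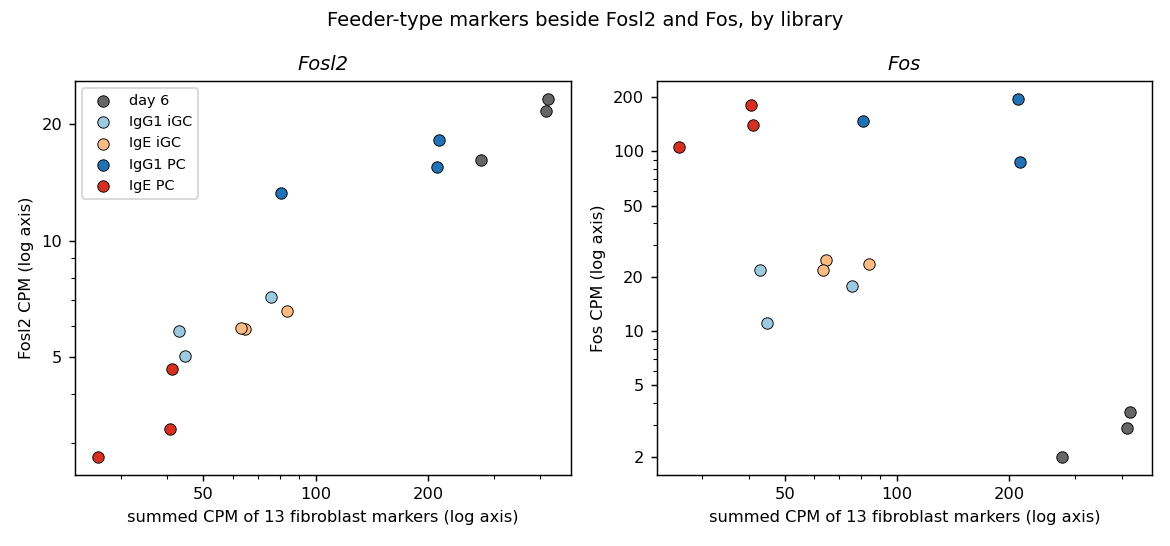
Each point is a library, with the summed CPM of 13 fibroblast markers on the horizontal log axis and Fosl2 (left) or Fos (right) on the vertical log axis. The IgG1 PC library at 80.9 CPM of markers has 13.3 CPM of Fosl2, above the iGC libraries at 75.7 and 83.9 CPM of markers.

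Batf, the partner of JUN and IRF4 at composite sites, was highest in IgG1 iGC and lowest in IgE PC. It stood at 22.4, 21.2 and 19.5 CPM at D6, 33.7, 32.4 and 30.8 in IgG1 iGC, 28.4, 25.7 and 22.5 in IgE iGC, 25.6, 24.5 and 25.9 in IgG1 PC, and 15.3, 15.5 and 15.9 in IgE PC. IgG1 iGC was above and IgE PC below every other library, and IgE iGC overlapped IgG1 PC. Batf fell by 0.72 on the log2 scale from iGC to PC in IgE (SE 0.08, edgeR Benjamini-Hochberg adjusted p = 8.85e-07) and by 0.35 in IgG1 (SE 0.08, adjusted p = 0.0011). In PC it was 1.63-fold lower in IgE (-0.70, SE 0.08, adjusted p = 2.25e-06). The steps differed by -0.37 (SE 0.11, edgeR adjusted p = 0.0138), and by -0.31 without IgG1 PC replicates 1 and 3, which leaves a lone IgG1 PC library. Batf3, known for its role in dendritic cells, was scarce, with at most 31 counts in a sorted library and 59 to 87 at D6. Its level was 1.97, 1.52 and 1.497 CPM at D6, from 0.24 to 0.43 in IgG1 iGC, 0.21 to 0.36 in IgE iGC, 0.31 to 0.60 in IgG1 PC and 0.10 to 0.19 in IgE PC. The IgE and IgG1 PC levels did not overlap (-1.63, SE 0.38, edgeR adjusted p = 0.00162), and neither step from iGC to PC passed (-0.90, adjusted p = 0.0656 in IgE, and 0.58, adjusted p = 0.141 in IgG1). The IgE step of Batf3 passed as a fall with total counts (-1.36, adjusted p = 0.00848), with total counts without immunoglobulin genes (-1.06, adjusted p = 0.0327), in limma (adjusted p = 0.0214) and without IgE iGC replicate 3 (adjusted p = 0.0473). The difference between those steps, -1.48 (adjusted p = 0.0325), failed in DESeq2 (adjusted p = 0.0672) and with no filter (adjusted p = 0.0826). It also failed in limma, in the fit of only the compared groups and with the replicate block, and passed with both total-count scalings. Of the 12 fits that left out a library, 8 failed as well (adjusted values from 0.0508 to 0.0917).

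Maff, the small MAF protein, was highest at D6 and lowest in IgE PC. It stood at 3.97, 4.83 and 4.24 CPM at D6, 2.28, 2.71 and 2.72 in IgG1 iGC, 1.39, 1.75 and 0.93 in IgE iGC, 2.41, 1.81 and 1.79 in IgG1 PC, and 0.61, 0.66 and 0.80 in IgE PC. IgE PC lay below every other library and D6 above, and IgG1 iGC overlapped IgG1 PC. Maff was 2.88-fold lower in IgE PC than in IgG1 PC (log2 -1.53, SE 0.23, edgeR Benjamini-Hochberg adjusted p = 3.98e-05). It fell by 1.01 from IgE iGC to IgE PC (SE 0.24, adjusted p = 0.0015), while the IgG1 step of -0.37 (SE 0.20) did not pass (adjusted p = 0.13). The IgG1 step of Maff passed as a fall with total counts (-0.61, adjusted p = 0.0141) and in limma on log2(TPM + 1) (-0.60, adjusted p = 0.000389). The difference between the steps was -0.64 (SE 0.31, edgeR adjusted p = 0.111). With total counts that difference passed (-0.87, adjusted p = 0.0281), as it did without IgE iGC replicate 3 (-0.81).

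**Figure D4:**
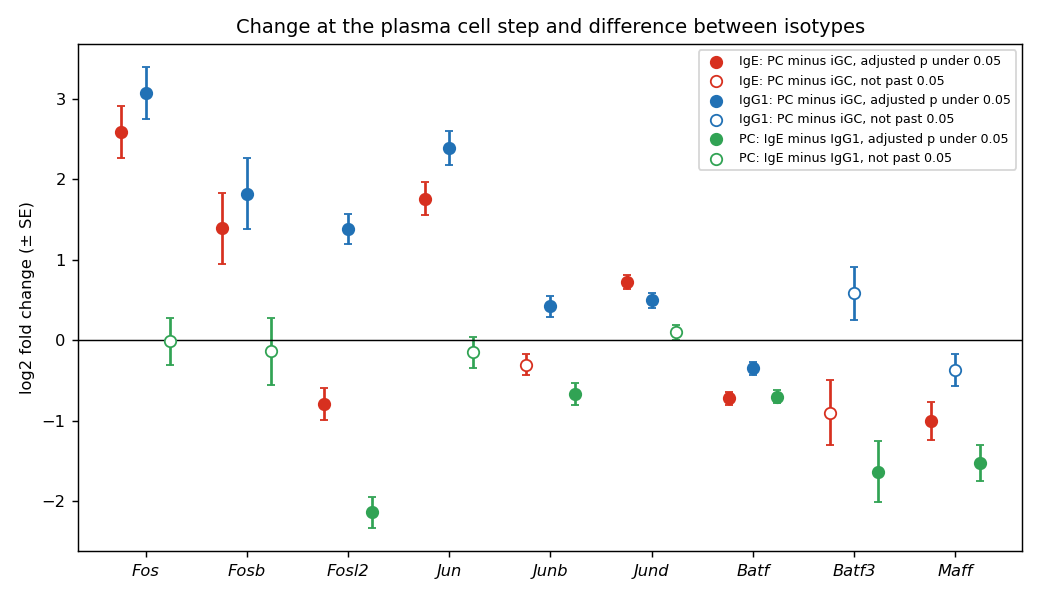
Points give the log2 fold change of each member with its SE (vertical axis) for PC minus iGC in IgE and in IgG1 and for IgE PC minus IgG1 PC, filled where the adjusted p is under 0.05. Fos, Fosb and Jun rise at both steps and sit near 0 between isotypes, while Fosl2 falls by 0.79 in IgE, rises by 1.38 in IgG1 and lies at -2.14 between the plasma cells.

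Set side by side, IgE PC and IgG1 PC differed in 5 members, all lower in IgE PC (Fosl2, Junb, Batf, Batf3 and Maff). Across all genes 58.1% were called, 27.4% higher and 30.7% lower. The member median was -0.67, against -0.05 for all genes. Cell type markers moved with this comparison. Of 8 plasma cell markers 6 were higher in IgE PC (median 0.75), and of 8 B cell markers 5 were lower (median -0.81). Their part in the member differences was not tested. The interaction, which tests whether the step from iGC to PC differs between isotypes, was called for 4 members, all negative (Fosl2, Junb, Batf, Batf3), where 42.9% of all genes were called, 19.8% positive and 23.1% negative. In both tests the count of members called, taken in either direction, was near the share over all genes. The tests use the same PC libraries, so the counts are not independent of each other.

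In iGC cells few genes differed between isotypes. Here 2 members, Batf and Maff, were called, both lower in IgE iGC, where 3.87% of all genes were called, 1.99% higher and 1.88% lower. Maff was 1.85-fold lower (log2 -0.89, SE 0.21, edgeR Benjamini-Hochberg adjusted p = 0.0254) and Batf differed by -0.33 (SE 0.08, adjusted p = 0.022). Both calls were lost without IgE iGC replicate 3 or IgG1 iGC replicate 2, and each was lost in 4 of the 6 fits that left out a library (adjusted p from 0.0809 to 0.106 for Batf and from 0.0909 to 0.103 for Maff). Fos (0.47, adjusted p = 0.581), Fosb (0.29, adjusted p = 0.854) and Jun (0.48, adjusted p = 0.306) did not pass, and neither did Fosl2 (0.03, adjusted p = 0.977). Of 8 plasma cell markers 4 were higher in IgE iGC (median 0.62). They summed to between 896 and 1021 CPM there and to between 580 and 645 CPM in IgG1 iGC, and their part in the Batf and Maff differences was not tested.

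Against D6, Fos changed most and in every sorted group. It was 6.09-fold higher in IgG1 iGC, 8.45-fold in IgE iGC, 51.3-fold in IgG1 PC and 50.8-fold in IgE PC (edgeR Benjamini-Hochberg adjusted p = 6.22e-05, 1.39e-05, 4.56e-08 and 3.09e-08). In IgE iGC 3 members were higher and 4 lower (69.1% of all genes called, 32.8% higher and 36.3% lower). In IgG1 iGC 3 were higher and 5 lower (68.4%, with 32.4% and 36.0%). In IgE PC 4 were higher and 5 lower (76.4%, with 36.9% and 39.5%), and in IgG1 PC 5 were higher and 3 lower (71.9%, with 35.9% and 36.0%). Junb was higher in all 4, by 1.03 to 1.45 on the log2 scale, apart from IgE PC at 0.78, where total counts gave 0.25 (adjusted p = 0.0788) and log2(TPM + 1) -0.11 (adjusted p = 0.386). Jund, Batf3 and Maff were lower in all 4, with Batf3 10.4-fold and Maff 6.29-fold lower in IgE PC. Fosl2 was lower in 3, by 5.72-fold in IgE PC, and in IgG1 PC it differed by -0.37 (adjusted p = 0.0614), which passed in DESeq2 (-0.41, adjusted p = 0.0400), with total counts (-0.66, adjusted p = 0.00494) and in limma (-0.82, adjusted p = 0.00028). It also passed without D6 replicate 1 (-0.52) or IgG1 PC replicate 3 (-0.496). Jun was lower in IgG1 iGC (-0.90, adjusted p = 0.00174) and higher in both PC groups (1.497 and 1.34). In IgE iGC it differed by -0.42 (adjusted p = 0.0907), which passed in 5 alternatives, DESeq2 (adjusted p = 0.0484), total counts (adjusted p = 0.0423), the replicate block (adjusted p = 0.0283), limma (adjusted p = 0.0180) and the edgeR fit of only these groups (adjusted p = 0.0124).

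Other D6 calls were less steady. The Fosb rise in IgE PC over D6 (1.29, edgeR adjusted p = 0.0164) was lost without D6 replicate 1 (adjusted p = 0.0562) or IgE PC replicate 1 (adjusted p = 0.0668), with total counts (0.76, adjusted p = 0.108) and in limma (0.27, adjusted p = 0.492). The Fosb rise in IgG1 PC over D6 (1.42, edgeR adjusted p = 0.0103) was lost in limma (adjusted p = 0.191). Batf in IgG1 PC was called higher than D6 with TMM (0.27, edgeR adjusted p = 0.00579) and was not called with total counts (-0.01). In limma on log2(TPM + 1) it was called lower (-0.45), with the median of all genes at -0.47. D6 cells were unsorted, on the feeder, with IL-4 and 2 days younger in culture, and these differences cannot be told apart. The 4 comparisons share the D6 libraries. Of 12 genes linked to sorting, handling and heat shock, 8 were lower than D6 in all 4 sorted groups and 3 or 4 higher. Among those lower, Hspa1a, an inducible heat shock gene, fell from 38.3 ± 2.32 CPM at D6 to at most 0.593 ± 0.296 in a sorted group. The part of sorting and handling in the member levels was not tested.

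Related leucine zipper proteins pair or compete with these 9. Of 12 tested among 17 related leucine zipper genes, 9 were higher and 2 lower in IgE PC than in IgG1 PC, with a median log2 difference of 0.64. Of all genes 27.4% were higher and 30.7% lower, with a median of -0.05. Jdp2, a repressor that binds AP-1 and cAMP response sites with JUN, stood at 8.94 ± 0.181 CPM in IgE iGC, 10.8 ± 0.55 in IgG1 iGC, 17.1 ± 1.05 in IgG1 PC and 40.3 ± 1.53 in IgE PC. It was higher in IgE PC than in IgG1 PC by 1.24 (SE 0.06, edgeR Benjamini-Hochberg adjusted p = 6.7e-10). Nfe2l1, a CNC-type activator of proteasome genes, was higher by 1.31 (SE 0.07), Bach1, a repressor that pairs with small MAF proteins, by 1.04 (SE 0.10), and Mafg, a relative of Maff, by 0.73 (SE 0.07). At the step from iGC to PC this list had 7 higher and 2 lower in IgE, and 5 higher and 4 lower in IgG1. Of all genes, 64.1% were called at the IgE step and 59.1% at the IgG1 step. Bach2 fell by 1.63 at the IgG1 step (adjusted p = 3.25e-06).

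Batf partners changed most through Irf4, the IRF that plasma cells need. Irf4 rose by 4.49 on the log2 scale at the IgE step and by 3.86 at the IgG1 step (edgeR Benjamini-Hochberg adjusted p = 3.28e-15 and 1.75e-14), while Irf8, its germinal centre counterpart, fell by 1.305 and by 0.81. Of the 9 partner genes, 2 were higher and 6 lower at each step, where 64.1% of all genes were called in IgE and 59.1% in IgG1. Between PC isotypes, where 58.1% of all genes were called, 3 were higher and 3 lower in IgE, with Irf4 at 0.74 (SE 0.07) and Runx3 at -0.57 (SE 0.07).

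Kinases and factors that drive AP-1 genes (27 tested of 28) were 14 higher and 8 lower in IgE PC than in IgG1 PC. In this comparison 58.1% of all genes were called. Mapk11, a p38 kinase, was lower by 1.86 on the log2 scale (-1.86, SE 0.12), Rasgrp1, which links diacylglycerol to Ras, was at -1.81 (SE 0.14), and Elk3, an SRF partner, at -1.11 (SE 0.09). Map3k1, a kinase upstream of JNK, was higher by 0.69 (SE 0.07). Between iGC and PC 10 of these kinases and factors were higher and 13 lower in IgE, where 64.1% of all genes were called. In IgG1 5 were higher and 13 lower, where 59.1% were called. Genes that restrain these kinases or AP-1 proteins (14) were 3 higher and 6 lower in IgE PC, with the p38 and JNK phosphatase Dusp10 at -2.14 (SE 0.17) and Itch, a ubiquitin ligase for JUN proteins, at 0.90 (SE 0.08). Dusp5, an ERK phosphatase, rose at both steps, by 2.41 in IgE and 2.53 in IgG1.

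Among 18 other immediate-early genes, 2 were higher and 9 lower in IgE PC than in IgG1 PC, with a median of -0.38. Of all genes 58.1% were called in this comparison, with a median of -0.05. Egr2 stood at 62.3 ± 8.20 CPM in IgG1 PC and 16.0 ± 2.18 in IgE PC (-1.97, SE 0.11, edgeR Benjamini-Hochberg adjusted p = 2.44e-09). Nr4a1 (-2.99, SE 0.19), Egr3 (-3.48, SE 0.29) and Nr4a3 (-3.06, SE 0.28), all induced by antigen receptor signals, were lower as well. At the step from iGC to PC 7 of the 18 were higher and 7 lower in IgE, where 64.1% of all genes were called. In IgG1 10 were higher and 6 lower, where 59.1% were called. In iGC cells Nr4a1 (-1.32), Nr4a3 (-2.04) and Egr3 (-0.93) were also lower in IgE. Genes linked to AP-1 in the literature (19 tested of 20) were 5 higher and 10 lower in IgE PC than in IgG1 PC. They include Icosl, a T cell costimulator (-2.45, SE 0.12), Plaur, the urokinase receptor (-4.46, SE 0.25), and Vegfa, an angiogenic factor (1.505, SE 0.10). Some genes stand in more than 1 of these lists.

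Across the 15 libraries, the genes whose log2(CPM + 1) most resembled a member were found among 8901 genes with a mean of at least 10 CPM in a group. Fos was closest to Fam117a (Pearson r = 0.988), the kinase Pim2 (0.987) and the interferon factor Irf7 (0.985). Jun was closest to the plasma cell factor Xbp1 (0.973), Junb to Acbd4 (0.974), Jund to Mvp (0.985), Batf to Dtx1 (0.984), Batf3 to Nol4l (0.980) and Maff to Pex19 (0.967). For Fosl2 the closest were Cd63 (0.969), Sulf2 (0.969) and the collagen gene Col1a1 (0.961), which is on the fibroblast list. Fosb had no gene above 0.893 (Gse1). The 15 points fall into 5 groups and share their libraries, so these values only describe the pattern.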

How the data were processed

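Values came from a deposited table with an expected count and a TPM value for each gene and library. The expected counts are estimates by RSEM per the file headers, and TPM was computed by the authors in RSEM, corrected for length and library total. Per the submitters' processing notes, cutadapt 1.9.1, STAR 2.5.2a, RSEM 1.3.0, DESeq2 1.12.3 and GRCm38 were used. The annotation release is not given in the sources used here, and gene positions and overlaps came from GENCODE vM21 on GRCm38. Libraries were polyA, strand-specific single-end reads of 76 bp, per the labels' protocols. Symbols were found for 51633 of 51912 identifiers.

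Expected counts were rounded and filtered with filterByExpr (minimum count 10, minimum total 15), leaving 15692 genes, and scaled by TMM. edgeR 4.0.16 (R 4.3.3) fitted 1 mean per group to all 15 libraries (robust quasi-likelihood, 10 residual degrees of freedom, coefficient of variation 10.4%), with Benjamini-Hochberg adjustment over all genes tested and a threshold of 0.05. SE is the log2 fold change divided by the square root of F, and intervals are approximate. The procedure was tested on simulated data with the same spread between libraries for every gene, a setting that does not cover widely spread members such as Fosb. Alternatives used DESeq2 1.42.0, limma 3.58.1 on log2(TPM + 1), 2 total-count scalings, no filter, only the compared groups, a replicate block, and each library left out.

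The members and gene lists were chosen with earlier results of these data known. All 9 members are named. Of other lists at most 4 genes with the smallest p per contrast are named, and 3 genes per member by likeness. A gene that met the rule is not reported here. Labels say biological replicates without naming animals, so p-values measure the spread between these samples. Replicate numbers are shared across groups, but deviations of same-numbered libraries correlated at a mean of -0.0146 (range -0.195 to 0.0908), so they were not taken as pairs.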

Additional observations from a re-analysis of the deposited data

Results flagged for a closer look

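For 4 members the isotypes changed unequally from iGC to PC, by a direct test of the difference (IgE step minus IgG1 step, edgeR with Benjamini-Hochberg adjustment). The differences were -2.17 for Fosl2, -0.73 for Junb, -0.37 for Batf and -1.48 for Batf3 on the log2 scale, with adjusted p of 1.93e-05, 0.00566, 0.0138 and 0.0325. Of all genes tested 42.9% were called in this test. Taken in either direction, the share of members called was near that value. The count of 4 by itself therefore does not set the members apart from all genes. Fosl2 fell in IgE and rose in IgG1, with PC and iGC libraries apart in both. The Batf3 difference was lost in 8 of the 12 fits that left out a library. It was also lost in DESeq2, in limma, with no filter, in the fit of only the compared groups and with the replicate block. Batf fell in both, further in IgE. The Junb step depended on the scaling in both isotypes. Groups of 3 libraries are too small for a test of single outlying libraries.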

How the results depend on the processing

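Of the log2 fold changes of members under alternatives, 1050 kept their direction and side of the threshold, 36 lost their call, 30 gained one and 26 changed sign. The sign changed mostly in differences near 0. For IgE PC against IgG1 PC, Fos was 0.027 in DESeq2 and 0.011 with the replicate block, and Jund was -0.15 with total-count scaling, -0.11 with that scaling without immunoglobulin genes and -0.052 in limma on log2(TPM + 1). With each library left out in turn these values ran from -0.27 to 0.27 for Fos, from -0.40 to 0.072 for Fosb and from -0.30 to 0.043 for Jun. For IgE iGC against IgG1 iGC, Fosl2 was -0.13 in limma, and with a library left out Fosl2 ran from -0.074 to 0.18, Fosb from -0.10 to 0.91 and Batf3 from -0.33 to 0.079. Fosb against D6 ran from -0.25 to 0.023 in IgE iGC and from -1.005 to 0.0074 in IgG1 iGC. In limma the IgG1 step was -0.20 for Junb, -0.11 for Jund and -0.033 for Batf3, and Junb in IgE PC against D6 was -0.11. Batf in IgG1 PC against D6 was -0.45 there, a call opposite in direction to that of the main fit. Total-count scaling gave -0.0016 for Jund in the interaction and -0.012 for Batf in IgG1 PC against D6. The cause was not tested.

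Between the iGC groups 607 genes and 2 members were called. DESeq2 called 937 genes and the fit of only the compared groups 1503, and leaving out a library gave 323 to 403 genes and 0 to 1 members. In limma 4345 genes were called in the interaction, against 6733. Computed from CPM in place of TPM, which does not correct for length, the JUN share was 80.0% in IgG1 iGC and 79.6% in IgE iGC, and the FOS share 9.10% at D6, 9.80% in IgG1 iGC and 12.6% in IgE iGC. The BATF share was 5.37% at D6, 9.43% in IgG1 iGC, 7.43% in IgE iGC, 3.91% in IgG1 PC and 2.69% in IgE PC. The replicate block brought Junb at the IgE step (-0.31, edgeR adjusted p = 0.0459), the Jun interaction (-0.64, adjusted p = 0.0384) and Jun in IgE iGC against D6 (adjusted p = 0.0283) into the calls and took the Batf3 interaction out (adjusted p = 0.0517). Batf3 rests on few counts, from 3 to 87 in a library.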

Other observations

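The libraries of a group differed in Fos and Fosb in the same manner in each sorted group. In all 4 of them the library numbered 1 held the most Fos and Fosb and the library numbered 3 the least, while at D6 the library numbered 1 held the least of both. Fos went from 195.9 to 87.7 CPM between these libraries in IgG1 PC and from 180.1 to 106.3 CPM in IgE PC. Jun and Junb were also lowest in the library numbered 3 in 4 of the 5 groups. The labels do not say what a replicate number stands for, and across all genes same-numbered libraries did not deviate together.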
